A study of Arabidopsis thaliana with 26 samples.

Results

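Expansins and xyloglucan endotransglucosylase/hydrolases (XTHs) are secreted proteins that remodel the plant primary cell wall, and the 27 such genes measured here were followed through hormone treatment of cultured Arabidopsis thaliana cells. The genes were taken by name: every probe set matched to 1 gene whose symbol begins with EXPA, EXPB, EXLA, EXLB or XTH. They are 27 of the 13356 genes with a matched probe set, at 1 probe set each: 10 alpha-expansins (EXPA4, EXPA7, EXPA8, EXPA9, EXPA15, EXPA16, EXPA18, EXPA20, EXPA21 and EXPA24), 4 beta-expansins (EXPB1, EXPB2, EXPB3 and EXPB5), 3 genes of the EXLA group and 1 of the EXLB group of expansin-like proteins, and 9 XTHs (XTH16, XTH18, XTH19, XTH20, XTH21, XTH26, XTH29, XTH32 and XTH33). Both families are larger than these 27 genes, and family members whose probe sets carry no gene name were not analysed here.

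The cells were T87, an Arabidopsis suspension line grown in shaken flasks under a light and dark cycle, and all groups share that line and its medium. The treatments were abscisic acid (ABA), salicylic acid (SA), the methyl ester of jasmonic acid (written JA), the pairs ABA+SA and ABA+JA, and ethanol at 0.6% as control (EtOH), each for 3 h or 24 h. The dose was 25 µM for ABA, 300 µM for SA and 100 µM for JA, alone or combined. There were 26 arrays in 12 groups, with 3 arrays for ABA alone at each time and 2 in every other group. The labels do not state whether replicate arrays came from different flasks, so the p-values cover the spread between arrays and that spread may be technical. A suspension line holds no organs, so levels here describe dispersed cells and not growing roots or shoots.

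The primary wall is a network of cellulose microfibrils tied by xyloglucan and set in pectin, and a cell enlarges when this network yields to turgor. Alpha-expansins loosen the network at acid pH without cutting its polymers, beta-expansins are their close relatives, and the expansin-like groups share the protein's domains although wall loosening has not been shown for them. XTHs cut a xyloglucan chain and join the cut end to another chain, or to water in the case of hydrolases, and so rebuild the tethers of an expanding wall. ABA usually restrains growth, SA and JA are hormones of defence, and each is known to change wall gene expression in whole plants.

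Values are log2 signals on arrays with 22746 probe sets, and they ran from 1.77 to 13.91 with array medians of 4.89 to 5.29. A change is the difference of 2 group means ± its standard error from 1 limma model of all 26 arrays, and it was called where the Benjamini-Hochberg adjusted p over all probe sets fell under 0.05. The 4 arrays with combined hormones at 3 h are given 1 pair of hormones by their titles and the other by their source names, and the titles were followed here. JRG21, a JA-induced gene, read 10.43 and 11.31 on the arrays titled ABA+JA and 3.06 and 2.94 on those titled ABA+SA, against 3.09 and 2.89 in EtOH cells. At 3 h JRG21 averaged 11.57 with JA alone and 3.35 with SA alone. UGT76B1, a glucosyltransferase gene tied to SA responses, read 11.52 and 11.96 on the arrays titled ABA+SA and 8.04 and 8.91 on those titled ABA+JA, against 5.58 and 5.63 in EtOH cells. Replicates 2 and 3 of ABA at 3 h differed with an SD of 0.158 over probe sets, against 0.343 to 0.735 for the other replicate pairs, so they count as 1 sample in every mean ± SD (n = 2). The model still took them as 2 arrays, and a fit with their average was an alternative. In bulk RNA, fewer cells of a type and less RNA per cell cannot be told apart.

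Most of these genes were quiet in T87 cells. In 17 of the 27 the 26 arrays spanned 2 log2 units or less, and all values of those genes lay between 2.47 and 4.73, below the lowest array median of 4.89. They include EXPA7 and EXPA18, which in the plant mark root hairs, with ranges over all arrays of 3.04 to 4.73 and 3.11 to 3.66. The other 10 spanned more: EXPA4, EXPA15, EXPA20, EXPB3, EXLA1, EXLA2, EXLA3, XTH18, XTH19 and XTH33. Changes were called in 8 genes, and 19 were called in none of 24 comparisons.

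**Figure D1:**
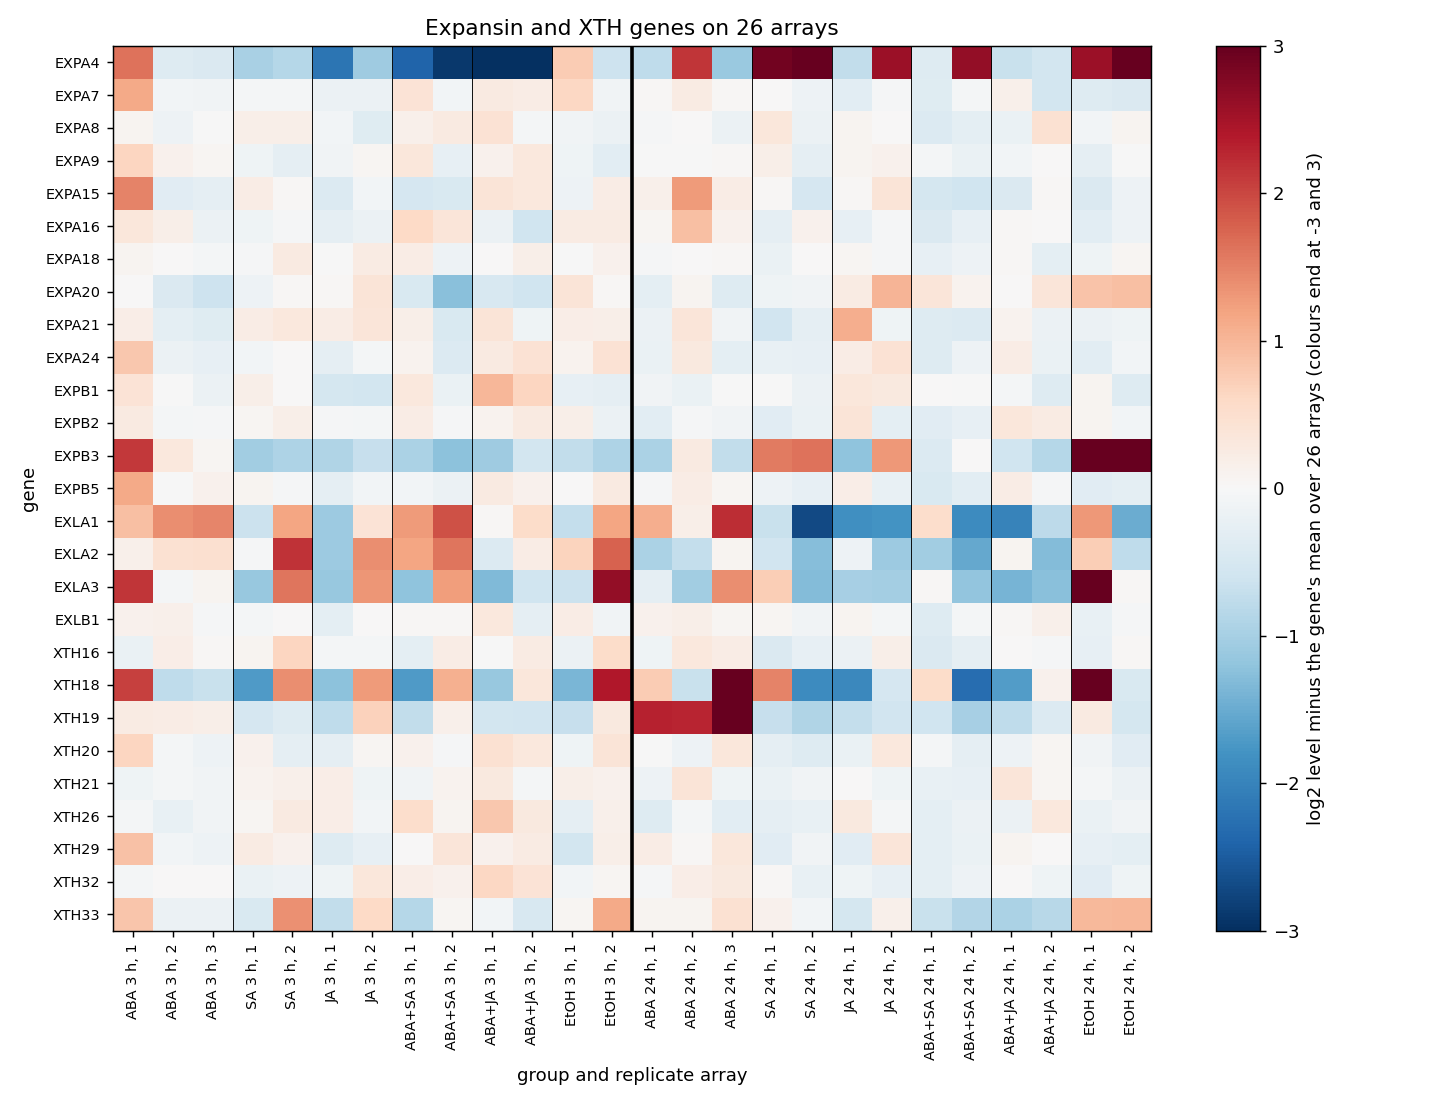
Log2 signal of each of the 27 genes (down the page) on each of the 26 arrays (across, by group and time) minus the gene's mean over all arrays (colour, which ends at -3 and 3). EXPA4, XTH18, EXLA1, XTH19, EXLA3, EXPB3 and EXLA2 span the most over the arrays, in that order, while 17 genes each span 2 log2 units or less.

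Against EtOH, calls were few at 3 h and most numerous with ABA at 24 h. With ABA at 24 h 4 of the 27 genes were called, XTH19 higher and EXPB3, EXPA4 and EXPA20 lower, a share of 14.8% against 18.3% of all probe sets. With ABA+JA 3 were called at 3 h, EXPB1 and XTH32 higher and EXPA4 lower (11.1% against 23.3% of all), and 3 at 24 h, EXPB3, EXPA4 and XTH33, all lower (11.1% against 9.25%). With ABA+SA 1 was called at each time, EXPA20 lower at 3 h (3.7% against 16.3%) and EXPB3 lower at 24 h (3.7% against 4.33%). JA at 24 h had 1 call, EXPB3 lower (3.7% against 4.88%). None of these shares stood far above the share of all probe sets. In the comparisons with fewer than 3 calls, the largest uncalled changes were EXPA4 at -2.72 and EXLA1 at 1.37 with ABA+SA at 3 h, XTH18 at -2.37 with ABA+SA at 24 h and XTH18 at -2.73 with JA at 24 h.

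SA alone and JA at 3 h called no gene of the 27 in limma, and neither did ABA at 3 h. For ABA at 3 h 18.1% of all probe sets were called, and 2 of the 27 genes, against 30.2% of all probe sets, had an unadjusted p under 0.05. For SA at 3 h 0.141% of all were called, with 0 genes and 3.41% of all at the unadjusted p. For SA at 24 h 0.374% were called, with 2 genes and 2.49% of all at the unadjusted p. For JA at 3 h 0.374% were called, with 0 genes and 5.5% of all at the unadjusted p. The largest changes here, none called, were EXPB3 at 1.67 and EXLA1 at 1.02 with ABA at 3 h, EXPA4 at -0.99 and EXLA3 at -0.77 with SA at 3 h, EXPA4 at -1.70 and EXLA2 at -1.07 with JA at 3 h, and EXLA3 at -1.94 and XTH18 at -1.70 with SA at 24 h. The median change of the 27 genes was 0.01 with ABA at 3 h, -0.11 with SA at 3 h and -0.24 with JA at 3 h, beside 0.02, 0.00 and -0.03 over all probe sets. At 24 h it was 0.15 with ABA, -0.06 with SA, 0.06 with JA, -0.24 with ABA+SA and 0.11 with ABA+JA, beside 0.00, 0.00, 0.06, -0.02 and 0.05 over all. All comparisons of a time share the same 2 EtOH arrays.

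**Figure D2:**
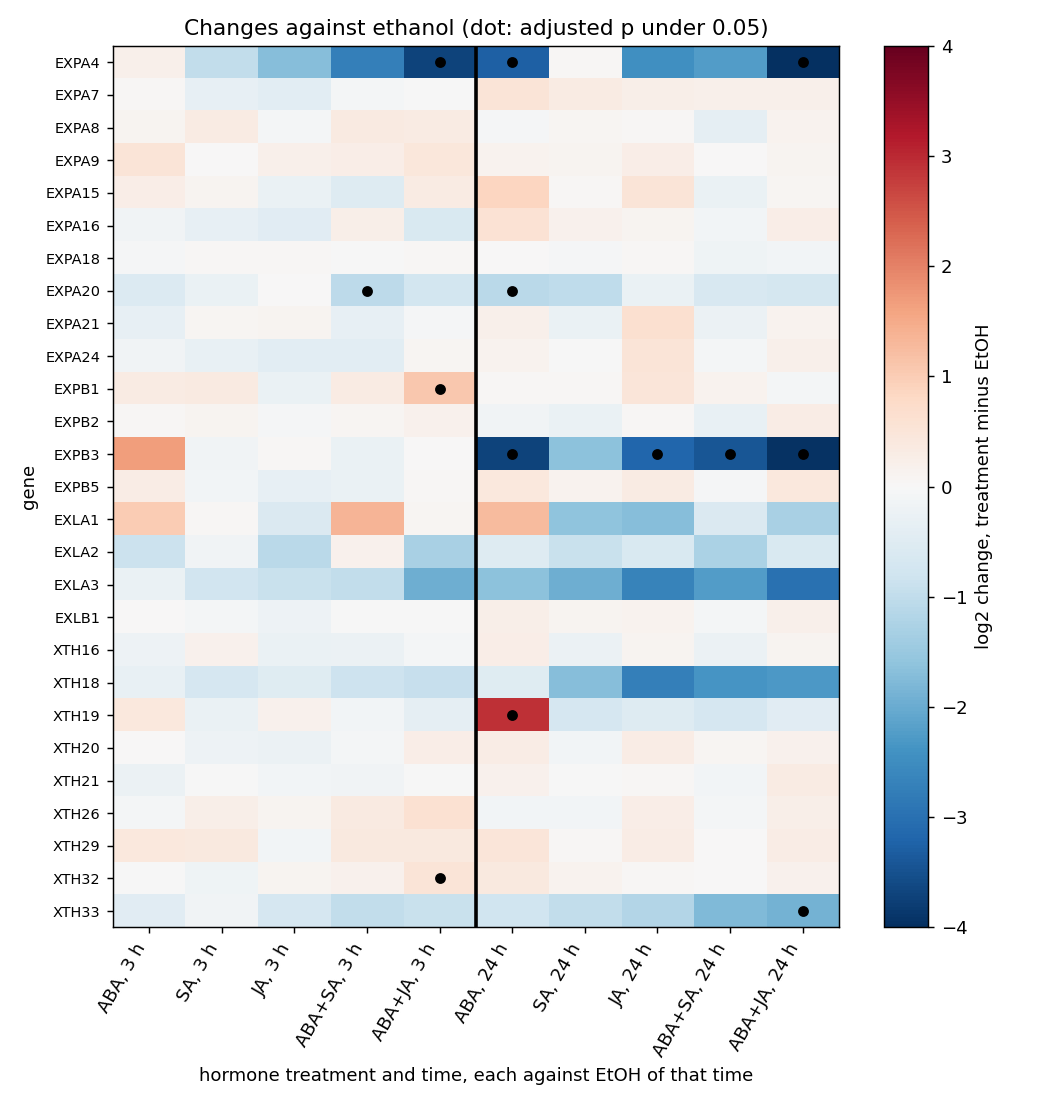
Change of each of the 27 genes in each hormone group against EtOH of the same time (log2, colour), with called changes marked. The called cells fall in EXPB3, EXPA4, EXPA20, EXPB1, XTH19, XTH32 and XTH33, and the columns of SA hold none.

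EXPB3 (AT4G28250), a beta-expansin, was called most often, in 8 comparisons. At 3 h it read 6.52, 4.71 and 4.45 with ABA, 3.34 and 3.46 with SA, 3.49 and 3.70 with JA, 3.44 and 3.17 with ABA+SA and 3.32 and 3.84 with ABA+JA, against 3.64 and 3.47 with EtOH. At 24 h it read 3.45, 4.66 and 3.65 with ABA, 5.95 and 6.03 with SA, 3.18 and 5.69 with JA, 3.97 and 4.40 with ABA+SA and 3.80 and 3.53 with ABA+JA, against 7.50 and 7.73 with EtOH. The ABA arrays were thus the highest at 3 h, and at 24 h every hormone array lay below both EtOH arrays.

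The EtOH cells themselves moved: EXPB3 averaged 7.62 ± 0.16 at 24 h and 3.55 ± 0.12 at 3 h (SD, n = 2 each), a rise of 4.06 ± 0.64 or 16.7-fold (limma adjusted p = 0.00122). It was the 1 called gene of the 27 in that comparison (3.7%, against 11.2% of all probe sets). Against EtOH at 24 h, EXPB3 fell by 3.70 ± 0.58 with ABA (13-fold, adjusted p = 0.000288), by 3.43 ± 0.64 with ABA+SA (adjusted p = 0.00329) and by 3.95 ± 0.64 with ABA+JA (adjusted p = 0.00109). These 4 calls were kept when each array was left out in turn and under every other setting tried. With SA at 24 h the change was -1.63 and was not called.

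The JA change of EXPB3 at 24 h, -3.18 ± 0.64 (limma adjusted p = 0.00878), rested on few arrays. The adjusted p was 0.142 without JA replicate 1, with a change of -1.93, and 0.0574 and 0.0553 without EtOH replicates 1 and 2. JA replicates 1 and 2 themselves read 3.18 and 5.69. At 3 h the ABA change of 1.67 ± 0.58 missed the threshold (adjusted p = 0.0555), and with ABA replicate 1 left out it was 1.03.

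The ABA response of EXPB3, ABA minus EtOH, was lower at 24 h than at 3 h by 5.37 ± 0.82 log2 units (limma adjusted p = 0.000648 for the difference of responses), and that call was kept without each array in turn. In that comparison 2 of the 27 genes were called, EXPB3 and XTH19 (7.41%, against 9.54% of all probe sets). The difference includes the rise of EXPB3 in EtOH cells, from 3.55 at 3 h to 7.62 at 24 h. At 3 h EtOH lay close to the lowest EXPB3 value on any array, 3.17, so a fall with ABA could hardly be seen then. At 3 h EXPB3 was lower with ABA+SA than with ABA by 1.92 ± 0.58 (adjusted p = 0.0262). That call ended without ABA replicate 1 (0.121), ABA+SA replicate 1 (0.0948) or ABA+SA replicate 2 (0.153), and it was the 1 call of the 27 genes in that comparison (3.7%, against 20.6% of all). ABA+JA against ABA at 3 h gave -1.65 ± 0.58 (adjusted p = 0.0469), among 5 called genes (18.5%, against 24.8% of all). That call ended without any 1 of 21 of the 26 arrays (adjusted p of up to 0.241) and when only the groups compared were fitted (0.13).

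EXPB1 (AT2G20750), another beta-expansin, moved over a much narrower range, 2.96 to 4.49, below every array median. It was called only in comparisons that involve ABA+JA at 3 h. It read 4.49 and 4.15 there, against 3.93, 3.49 and 3.33 with ABA, 2.97 and 2.96 with JA, and 3.26 and 3.23 with EtOH. Both ABA+JA arrays lay above all arrays of those 3 groups. The change was 1.08 ± 0.21 against EtOH (limma adjusted p = 0.00125) and 1.35 ± 0.21 against JA (adjusted p = 0.00023), the 1 call of the 27 genes in the comparison with JA (3.7%, against 21.2% of all probe sets). Both calls were kept without each array in turn.

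Against ABA alone, EXPB1 was higher with ABA+JA by 0.74 ± 0.19 (limma adjusted p = 0.00943), or 0.125 without ABA+JA replicate 1. Its change with both hormones exceeded the sum of the separate ABA and JA changes by 1.01 ± 0.29 (adjusted p = 0.0339), the 1 call among the 27 genes for that interaction (3.7%, against 9.48% of all). The interaction call ended without either EtOH or either JA replicate, ABA replicate 2 or 3, or ABA+JA replicate 1, with an adjusted p of up to 0.132, and also with ABA replicates 2 and 3 averaged (0.0666). All of these EXPB1 calls depended on taking the groups from the titles: with the source names the change was 0.32 against EtOH and -0.02 against ABA. The other beta-expansins, EXPB2 and EXPB5, ranged over all arrays from 3.47 to 4.20 and from 2.60 to 4.18 and were not called.

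EXPA4 (AT2G39700), an alpha-expansin, had the widest range of the 27 genes, 2.26 to 10.62. At 3 h it read 8.09, 6.06 and 6.01 with ABA, 5.47 and 5.59 with SA, 4.25 and 5.39 with JA, 4.05 and 3.55 with ABA+SA and 3.39 and 2.26 with ABA+JA, against 7.21 and 5.84 with EtOH. At 24 h it read 5.69, 8.60 and 5.34 with ABA, 9.34 and 10.40 with SA, 5.71 and 9.01 with JA, 6.07 and 9.09 with ABA+SA and 5.79 and 5.89 with ABA+JA, against 9.02 and 10.62 with EtOH. The lowest arrays were those of both hormone pairs at 3 h. At 24 h SA and ABA+SA overlapped EtOH, while ABA and ABA+JA lay below it. The higher JA array, at 9.01, all but reached the lower EtOH array, at 9.02.

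EXPA4 fell by 3.70 ± 1.16 with ABA+JA at 3 h (13-fold, limma adjusted p = 0.0282), by 3.28 ± 1.06 with ABA at 24 h (adjusted p = 0.0395) and by 3.98 ± 1.16 with ABA+JA at 24 h (15.7-fold, adjusted p = 0.0391). Each call was close to the threshold. For ABA+JA at 3 h the adjusted p was 0.191 and 0.0505 without EtOH replicates 1 and 2 and 0.0611 and 0.153 without ABA+JA replicates 1 and 2. For ABA at 24 h it was 0.0639 and 0.299 without EtOH replicates 1 and 2 and 0.123 and 0.131 without ABA replicates 1 and 3. For ABA+JA at 24 h it was 0.0736 and 0.25 without EtOH replicates 1 and 2 and 0.134 and 0.118 without ABA+JA replicates 1 and 2.

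EXPA4 was also lower with ABA+JA than with ABA at 3 h, by 3.89 ± 1.06 (limma adjusted p = 0.012, or 0.0508 without ABA replicate 1 and 0.108 without ABA+JA replicate 2). With ABA+SA at 3 h the change against EtOH was -2.72 ± 1.16 (adjusted p = 0.134) and against ABA -2.92 (adjusted p = 0.061), neither called. The change against EtOH was called when only the groups compared were fitted (0.0131) and with groups by source name (0.0282). The change against ABA was called in both of those fits (0.0341 and 0.012), with the dimmest 25% of probe sets left out (0.0469), without the first replicates of JA and ABA+JA at 24 h (0.0425), and without any 1 of 5 single arrays. The EtOH cells at 24 h exceeded those at 3 h by 3.30 ± 1.16 in EXPA4, also short of the threshold (adjusted p = 0.0783). Its response to ABA was lower at 24 h than at 3 h with a difference of -3.47 ± 1.5 (adjusted p = 0.171), and its change with ABA+JA against JA at 3 h was -1.99, neither called.

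EXPA20 (AT4G38210), a further alpha-expansin, changed by about 1 log2 unit. At 24 h it read 5.32, 5.70 and 5.23 with ABA, 5.48 and 5.51 with SA, 5.85 and 6.64 with JA, 5.98 and 5.71 with ABA+SA and 5.62 and 5.98 with ABA+JA, against 6.48 and 6.52 with EtOH. All groups but JA lay below EtOH without overlap. With ABA it fell by 1.08 ± 0.26 (limma adjusted p = 0.00747, or 0.0618 without EtOH replicate 2). With SA the change was nearly as large, -1.0 ± 0.29, but was not called (adjusted p = 0.384). At 3 h it read 5.16 and 4.37 with ABA+SA, against 6.0 and 5.64 with EtOH, and fell by 1.05 ± 0.29 (adjusted p = 0.0159). That call ended without EtOH replicate 1 (0.147) or ABA+SA replicate 2 (0.237).

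The remaining 8 alpha-expansins were called in no comparison. EXPA15 ranged from 3.95 to 6.04 over all arrays. EXPA8 kept to 3.10 to 3.99, EXPA9 to 2.47 to 3.44 and EXPA16 to 2.86 to 4.36. EXPA21 and EXPA24 lay between 2.90 and 4.58 and between 2.88 and 4.10.

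XTH19 (AT4G30290), a xyloglucan endotransglucosylase, was high in 1 group. At 24 h it read 5.58, 5.56 and 6.98 with ABA, 2.59 and 2.36 with SA, 2.56 and 2.69 with JA, 2.67 and 2.28 with ABA+SA and 2.50 and 2.86 with ABA+JA, against 3.53 and 2.74 with EtOH. At 3 h all XTH19 values lay between 2.52 and 3.97. The 3 ABA arrays at 24 h were the 3 highest of the 26.

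XTH19 averaged 6.04 ± 0.81 with ABA at 24 h (SD, n = 3) and 3.13 ± 0.56 with EtOH (SD, n = 2), a rise of 2.91 ± 0.44 or 7.51-fold (limma adjusted p = 0.000192). Leaving out each array in turn gave 2.44 to 3.31, and the call was kept each time. No rise was called with ABA+SA or ABA+JA. XTH19 was lower by 3.57 ± 0.44 with ABA+SA than with ABA (adjusted p = 5.77e-05), and by 3.37 ± 0.44 with ABA+JA than with ABA (adjusted p = 9.93e-05). Both calls were kept without each array in turn. XTH19 was the 1 gene of the 27 called in each of them (3.7%, against 6.97% and 9.57% of all probe sets). XTH18 changed by -1.89 with ABA+SA against ABA, without a call.

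Tested as interactions at 24 h, the XTH19 change with both hormones fell short of the sum of the single changes by 2.91 ± 0.65 for ABA with SA (limma adjusted p = 0.0446) and by 2.86 ± 0.65 for ABA with JA (adjusted p = 0.0266). It was the 1 called gene of the 27 in each (3.7%, against 0.725% and 2.33% of all probe sets). The SA interaction lost its call without any 1 of 17 arrays, with an adjusted p of up to 0.203, and with the near-identical ABA arrays of 3 h averaged (0.0638). The JA interaction lost it without EtOH replicate 2 (0.121), JA replicate 1 (0.0589), JA replicate 2 (0.0533) or ABA+JA replicate 1 (0.108). EXPB3 had interactions of 1.89 ± 0.86 for SA (adjusted p = 0.435) and 2.92 ± 0.86 for JA (adjusted p = 0.0866) at 24 h, and neither was called. With ABA alone at 24 h EXPB3 already averaged 3.92, and its lowest value on any array was 3.17. That left little room for SA or JA to lower it further, so these 2 values cannot show whether the hormone changes add up.

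The ABA response of XTH19 was larger at 24 h than at 3 h by 2.49 ± 0.62 (limma adjusted p = 0.0165), a call that ended without EtOH 3 h replicate 2 (0.105) or EtOH 24 h replicate 2 (0.0962). By its mean over all arrays XTH19 was among the dimmest 25% of probe sets.

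XTH33 (AT1G10550), an XTH with a membrane anchor, read 3.44 and 3.54 with ABA+JA at 24 h, against 5.36 and 5.39 with EtOH. It fell by 1.88 ± 0.53 (limma adjusted p = 0.0324). The call ended without EtOH replicate 1 (0.131) or 2 (0.134), or ABA+JA replicate 1 (0.123) or 2 (0.0993). With ABA+SA at 24 h the arrays read 3.71 and 3.50, without a call.

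XTH32 (AT2G36870), which belongs to the group of XTHs that includes xyloglucan hydrolases, and XTH26 (AT4G28850) moved by less than 1 log2 unit. Their values, 2.77 to 3.74 and 2.92 to 4.12, all lay below every array median. XTH32 read 3.74 and 3.52 with ABA+JA at 3 h, against 3.05, 3.14 and 3.12 with ABA and 3.04 and 3.17 with EtOH. Its change was 0.53 ± 0.17 against EtOH (limma adjusted p = 0.0329) and 0.53 ± 0.16 against ABA (adjusted p = 0.019). Without ABA+JA replicate 1 these adjusted p-values were 0.207 and 0.169, and without EtOH replicates 1 and 2 the first was 0.172 and 0.0758.

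XTH26 read 4.12 and 3.59 with ABA+JA at 3 h, against 3.23, 3.07 and 3.20 with ABA, a rise of 0.69 ± 0.20 (limma adjusted p = 0.0181). The call ended without ABA replicate 2 (0.0536) or ABA+JA replicate 1 (0.256). XTH16, XTH20, XTH21 and XTH29 were called in no comparison, and their values lay between 2.56 and 4.0.

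In 4 comparisons beside those against EtOH none of the 27 genes was called by limma. ABA+SA against SA called 13.3% of all probe sets at 3 h and 2.71% at 24 h, and 2 genes (23.9% of all) and 1 gene (10% of all) had an unadjusted p under 0.05. ABA+JA against JA at 24 h called 0% of all, with 1 gene (3.28% of all) at the unadjusted p. The ABA by SA interaction at 3 h called 3.89% of all, with 0 genes (18.3% of all) at the unadjusted p. The largest changes there were EXPA4 at -1.73 and EXLA1 at 1.33 with ABA+SA against SA at 3 h, EXPA4 at -2.29 and EXPB3 at -1.80 for the same pair at 24 h, and EXPA4 at -1.52 and EXPB3 at -0.77 with ABA+JA against JA at 24 h.

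The expansin-like genes EXLA1 (AT3G45970), EXLA2 (AT4G38400) and EXLA3 (AT3G45960), and XTH18 (AT4G30280), were among the most variable of the 27 genes and yet were called in no comparison. EXLA2 is known for a role in the susceptibility of leaves to a necrotrophic fungus. EXLA2, XTH18 and the pattern described here were singled out after their values were seen. XTH18 read 8.67, 5.85 and 5.93 with ABA, 4.92 and 8.01 with SA, 5.37 and 7.89 with JA, 4.92 and 7.67 with ABA+SA and 5.47 and 6.95 with ABA+JA, against 5.25 and 9.0 with EtOH, all at 3 h. In all 5 of the 3 h groups with 2 arrays, replicate 2 of XTH18 lay above replicate 1.

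EXLA1, EXLA2 and EXLA3 showed the same order in all 5 of those groups at 3 h. In the remaining 3 h group, ABA with 3 arrays, replicate 2 minus replicate 1 was -2.82 in XTH18 and -2.21 in EXLA3, but 0.50 in EXLA1 and 0.30 in EXLA2. EXLA3, for example, read 3.43 and 6.18 with SA, against 3.93 and 7.21 with EtOH. The median gap between replicates at 3 h was 2.75 for XTH18, 1.48 for EXLA1, 1.1 for EXLA2 and 2.48 for EXLA3, and the group means of those groups spanned 0.91, 1.94, 1.48 and 1.96. At 24 h replicate 2 was the higher in 2, 2, 0 and 1 of the 5 groups, with gaps of 2.84, 2.03, 0.94 and 1.22. What the replicate numbers stand for is not given in the labels.

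**Figure D3:**
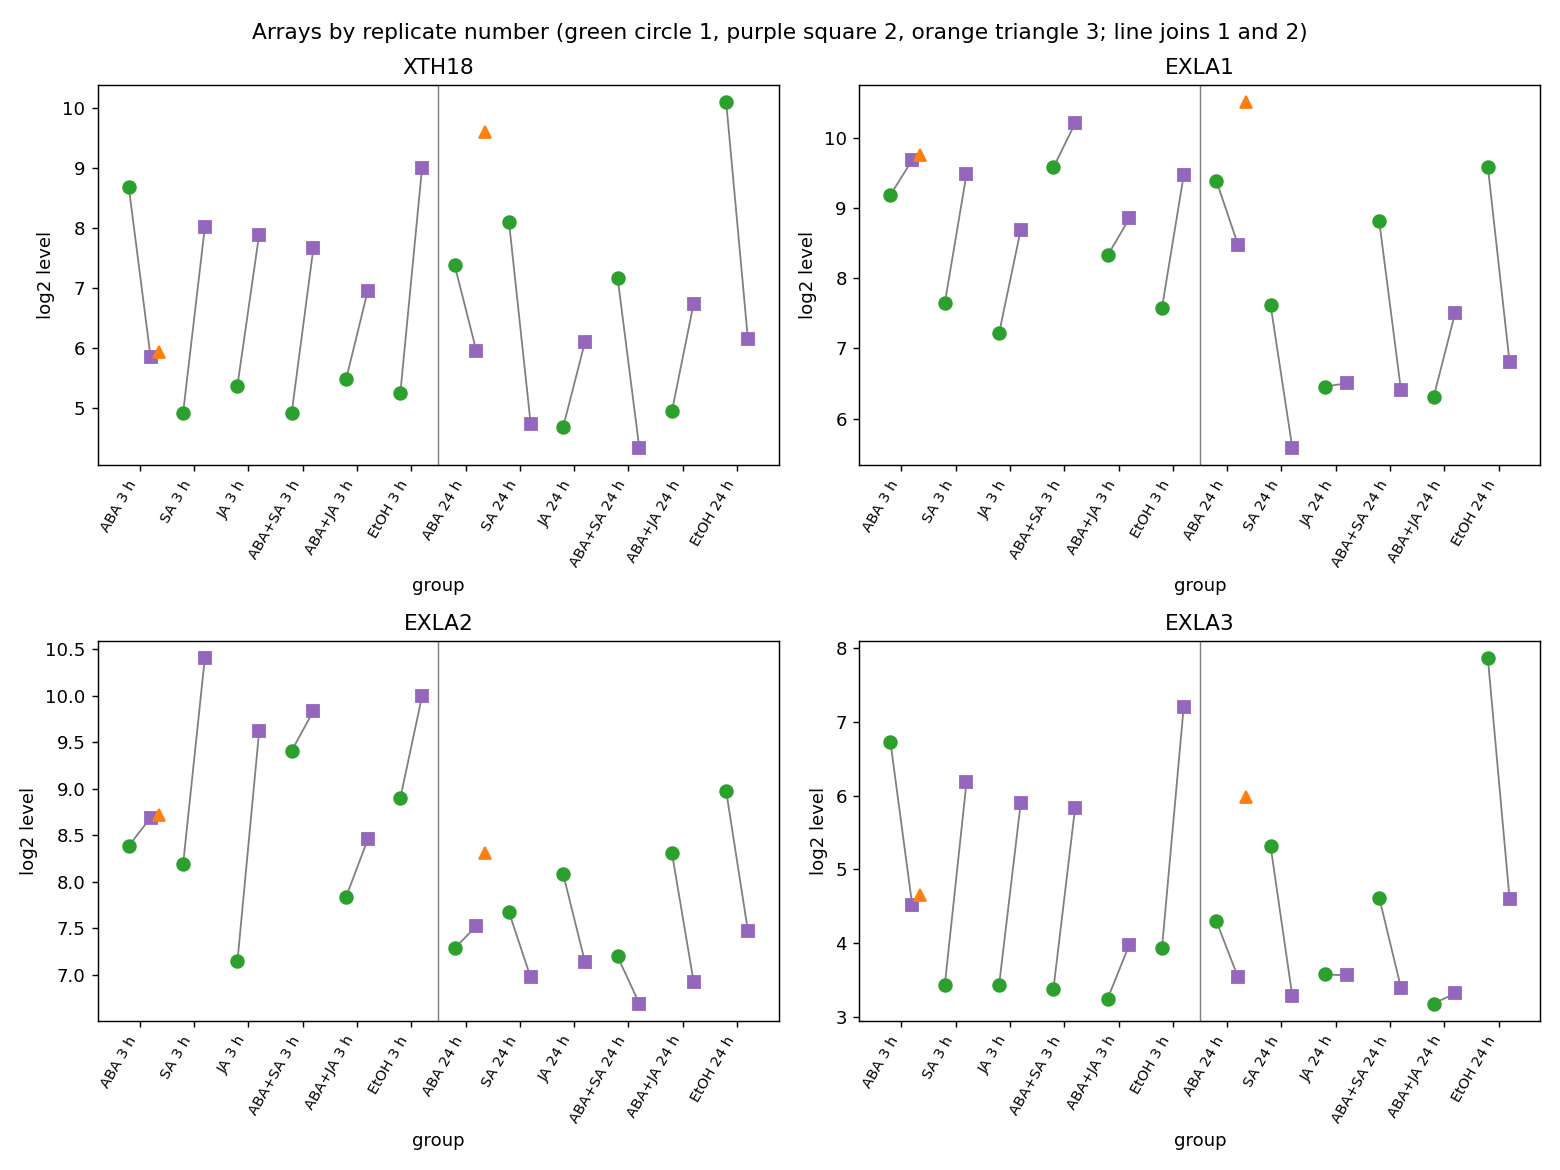
Log2 signal of XTH18, EXLA1, EXLA2 and EXLA3 by group and replicate number at each time (a line joins replicates 1 and 2). In every 3 h group with 2 arrays replicate 2 lies above replicate 1 for each of the 4 genes, which is not so at 24 h.

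At 24 h XTH18 read 7.38, 5.95 and 9.59 with ABA, 8.10 and 4.73 with SA, 4.69 and 6.10 with JA, 7.17 and 4.34 with ABA+SA and 4.94 and 6.74 with ABA+JA, against 10.10 and 6.15 with EtOH. Every group overlapped EtOH except JA, at -2.73 ± 1.73 (limma adjusted p = 0.401). EXLA3 at 24 h changed by -2.99 ± 1.31 with ABA+JA against EtOH (adjusted p = 0.177), and EXLA1 was at -2.55 with ABA+JA against ABA (adjusted p = 0.086). EXLB1, the other expansin-like gene, kept to 3.37 to 4.08 on all arrays.

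EXPB3 and EXPA4 were also set beside a scale of change between 3 h and 24 h read from other genes. Over 3240 probe sets with a called change from SA at 3 h in the SA cells of 24 h, the 27 genes left out, each array was placed on a scale with the SA 3 h mean at 0 and the SA 24 h mean at 1. At 24 h the ABA arrays lay at 0.393 to 0.491, the SA arrays at 0.964 and 1.04, the JA arrays at 0.0833 and 0.657, the ABA+SA arrays at 0.636 and 0.723 and the ABA+JA arrays at 0.1 and 0.327, against 0.901 and 0.969 for EtOH. At 3 h the ABA arrays lay at 0.463 to 0.578, the ABA+SA arrays at -0.161 and -0.114 and the ABA+JA arrays at -0.166 and -0.113, against 0.0787 and 0.148 for EtOH. The 4 arrays with the lowest EXPA4 signal, those of ABA+SA and ABA+JA at 3 h, were at the 4 lowest places on this scale. The levels did not follow it throughout: EXPB3 read 6.52 on an ABA 3 h array at 0.578 but 3.97 and 4.40 on the ABA+SA 24 h arrays, and EXPA4 read 7.21 on an EtOH 3 h array at 0.0787 but 5.34 on an ABA 24 h array at 0.43. JA replicates 1 and 2 at 24 h were apart both on the scale and in EXPB3 and EXPA4.

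**Figure D4:**
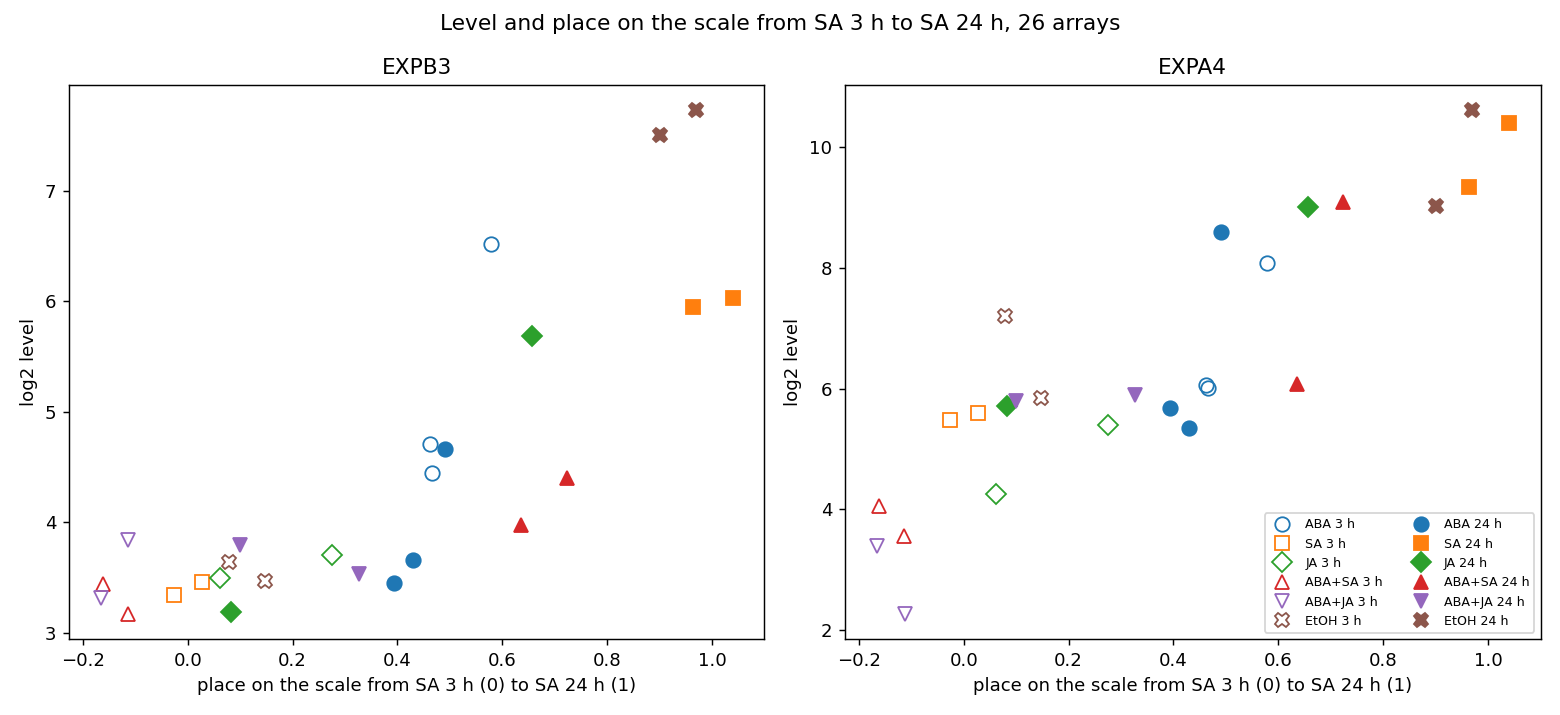
Log2 signal of EXPB3 and EXPA4 on the 26 arrays (vertical axis; open symbols 3 h, filled 24 h) against the place of each array between the SA means of 3 h (0) and 24 h (1) over 3240 other probe sets (horizontal axis, no unit). Both genes read highest on an EtOH 24 h array at 0.969, and the 4 arrays of ABA+SA and ABA+JA at 3 h, below 0, read lowest in EXPA4.

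Genes of mitosis changed in some of the same comparisons and not in others. The mean log2 level of the 5 measured mitosis markers per array was 4.58 to 5.04 with ABA at 24 h, 4.01 to 4.18 with ABA+SA, 4.5 to 4.74 with ABA+JA and 4.49 to 6.15 with JA, against 7.80 to 7.85 with EtOH. All 5 were called lower with ABA (18.3% of all probe sets called), ABA+SA (4.33%) and ABA+JA (9.25%) at 24 h. With JA at 24 h 3 were called lower (4.88%). These are the groups in which EXPB3 fell. The markers were chosen with earlier results of these data known, so the match is no independent result. At 3 h these markers were at 6.85 to 7.11 with ABA, against 4.73 to 5.99 with EtOH, and 3 of 5 were called higher (18.1% of all). With ABA+JA and with ABA+SA at 3 h 1 of 5 was called higher and 0 lower (23.3% and 16.3% of all). The median change of the 5 markers was nevertheless -0.80 with ABA+JA and -0.69 with ABA+SA. Only AUR2 had a higher mean than with EtOH, while AUR1, TOPII, KINESIN-12B and 3xHMG-box2 had lower means in both groups, without a call. At that time EXPA4 fell with ABA+JA. With ABA+SA against SA at 24 h all 5 were called lower (2.71% of all), and 0 of the 27 wall genes were called. The part of these other changes in those of EXPB3 and EXPA4 was not tested.

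Other wall and growth genes gave a wider view. Of 195 symbols on 12 such lists, 15 probe sets beside the 27 genes were measured under a name, and on 3 lists none was. With ABA+JA at 3 h 7 of the 15 fell and 1 rose, with ABA+SA 2 fell and 1 rose, and with ABA 2 fell, while 0 were called with SA or JA at that time. The shares of all probe sets called were 23.3%, 16.3% and 18.1% for ABA+JA, ABA+SA and ABA, so that 2 or 3 of 15 is near the share of all. The lists were chosen with earlier results of these data known. The larger count with ABA+JA is therefore no test of wall genes as a set. At 24 h 1 rose with ABA (18.3% of all), with JA (4.88%) and with ABA+JA (9.25%), and with ABA+SA 1 rose and 1 fell (4.33%).

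Of 19 listed genes for pectin methylesterases, which set the charge and stiffness of pectin, and their inhibitors, 2 were measured. PME61 read 4.62, 3.65 and 4.0 with ABA at 3 h, against 7.53 and 6.65 with EtOH, and fell by 3.00 ± 0.45 (limma adjusted p = 0.000221). PMEPCRF read 7.70, 8.06 and 7.96, against 9.72 and 9.95 with EtOH, and fell by 1.93 ± 0.27 (adjusted p = 0.000109). At 24 h PMEPCRF was higher by 1.03 ± 0.27 with ABA, 1.66 ± 0.29 with JA, 1.77 ± 0.29 with ABA+SA and 2.05 ± 0.29 with ABA+JA, while its EtOH level was itself lower at 24 h than at 3 h by 2.86 ± 0.29. PME61 was called in no hormone group against EtOH at 24 h, where its changes ran from 0.01 with ABA+SA to 1.33 with JA.

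The genes that fell with ABA+JA at 3 h include CSLC04, of the family that makes the xyloglucan backbone, at -2.79 ± 0.92 (limma adjusted p = 0.0363), and the wall-sensing receptor kinase gene THE1 at -2.09 ± 0.57 (adjusted p = 0.0127). COB, needed for oriented cell expansion, was at -1.14 ± 0.36 (adjusted p = 0.0292). ADPG1, a polygalacturonase that cuts pectin, rose by 1.8 ± 0.31 in that group (adjusted p = 0.000423) and by 1.47 ± 0.31 with ABA+SA (adjusted p = 0.00315). CSLC04 read 4.56 and 6.29 with ABA+JA at 3 h, against 7.45 and 8.97 with EtOH. In every 3 h group with 2 arrays its replicate 2 lay above replicate 1, as for XTH18. Whether the calls of these listed genes hold with single arrays left out was not examined. The groups follow the titles.

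Of the 28 calls in the 27 genes, 10 were kept when each array was left out in turn, 10 under every other setting tried and 8 under all of them. Those 8 are the EXPB3 changes with ABA, ABA+SA and ABA+JA at 24 h, the EXPB3 rise in EtOH cells between 3 h and 24 h, its response to ABA at 24 h minus that at 3 h, and the XTH19 changes at 24 h with ABA against EtOH, ABA+SA against ABA and ABA+JA against ABA. When only the groups compared were fitted, calls ended for EXPB3 with JA at 24 h, for EXPA4 against EtOH at 24 h, for EXPA20 with ABA+SA, for XTH26, XTH32 and the 3 interactions, and for EXPB1 and EXPB3 against ABA at 3 h. Quantile scaling ended those of EXPA20 with ABA+SA, XTH32 against EtOH, XTH33 and the ABA by SA interaction of XTH19. Leaving out the first replicates of JA and ABA+JA at 24 h, both at once, ended those of EXPB3 with JA and of EXPA4 and XTH33 with ABA+JA at 24 h, and both XTH19 interactions. Grouping by source name ended every call of EXPA4, EXPA20, EXPB1, XTH26 and XTH32 that rests on combined hormones at 3 h. XTH19, XTH26 and XTH32 could not be tested where the dimmest 25% of probe sets was left out. Cross-hybridisation between close relatives, such as XTH18 and XTH19, was not tested.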

How the data were processed

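Biotin-labelled RNA of T87 cells was hybridised to 26 one-colour oligonucleotide arrays. RMA was used by the authors, per the submitters' processing notes (version not given in the sources used here). The deposited table was taken as log2 signals from the range of its values, had 0 missing values and was used unchanged. Of 22746 probe sets 13513 matched 1 gene, 503 several and 8730 none. Groups follow the titles.

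limma 3.58.1 in R 4.3.3 fitted 12 group means to all arrays (residual degrees of freedom 14), with empirical Bayes tests and Benjamini-Hochberg adjustment over all probe sets. The number of arrays limits the precision. The fit was tested on simulated data. Members and gene lists were chosen with earlier results of these data known. Called genes are named, and where fewer than 3 were called also the 2 largest changes. The 10 genes called most often, ties broken by range, are described, with array values for some or all groups except in EXLA1. EXLA1 is given by its changes and the gaps between replicates. Alternatives were the compared groups alone, quantile scaling, the dimmest 25% left out, a replicate block, grouping by source name, averaging replicates 2 and 3 of ABA at 3 h, omitting replicate 1 of JA and ABA+JA at 24 h together, and each array left out. A replicate block within each time was chosen after seeing the data.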

Additional observations from a re-analysis of the deposited data

Results flagged for a closer look

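In 5 results the response to a hormone differed between times or in the presence of a second hormone, each tested as a difference of changes in limma over all probe sets. The EXPB3 response to ABA was lower at 24 h than at 3 h, with a difference of -5.37 ± 0.82 (adjusted p = 0.000648). That difference includes the EXPB3 rise of 4.06 in EtOH cells, whose low level at 3 h left little room for a fall with ABA. The XTH19 response to ABA was higher at 24 h than at 3 h by 2.49 ± 0.62 (adjusted p = 0.0165). At 3 h the EXPB1 change with ABA+JA exceeded the sum of the single changes by 1.01 ± 0.29 (adjusted p = 0.0339). At 24 h the XTH19 change differed from that sum by -2.91 ± 0.65 with ABA+SA (adjusted p = 0.0446) and by -2.86 ± 0.65 with ABA+JA (adjusted p = 0.0266).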

How the results depend on the processing

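Counts of called genes among the 27 changed with the settings as follows. With only the groups compared fitted there were 0 for JA against EtOH at 24 h, 2 for ABA+SA against EtOH at 24 h, 1 for ABA+SA against SA at each time, 2 for ABA+SA and 2 for ABA+JA against ABA at 3 h, 2 for EtOH at 24 h against 3 h, and 0 for the 3 interactions with a call. Quantile scaling gave 0 for ABA+SA against EtOH at 3 h and 0 for the ABA by SA interaction at 24 h. Leaving out the dimmest 25%, with XTH19, XTH26 and XTH32 among them and so untested, gave 1 for ABA against EtOH at 3 h. It gave 2 for ABA+SA and 3 for ABA+JA against ABA at 3 h, and 0 for both pairs against ABA at 24 h. It also gave 1 for the ABA response and 0 for both interactions at 24 h. Grouping by source name gave 3 for ABA+SA and 1 for ABA+JA against EtOH at 3 h, 2 for ABA+SA against SA at 3 h, 5 for ABA+SA and 1 for ABA+JA against ABA at 3 h, and 0 for the ABA by JA interaction at 3 h, and it turned EXPB1 with ABA+JA against ABA at 3 h to -0.017. Averaging the near-identical ABA arrays gave 1 for ABA against EtOH at 3 h and 0 for the interactions of ABA with JA at 3 h and with SA at 24 h. Omitting replicate 1 of JA and ABA+JA at 24 h together gave 1 for ABA and 5 for ABA+JA against EtOH at 3 h, 0 for JA and 1 for ABA+JA against EtOH at 24 h, 2 for ABA+JA against JA and 2 for ABA+SA against ABA at 3 h, and 0 for both interactions at 24 h.

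The replicate block gave 1 for ABA against EtOH at 3 h, where EXPB3 was at 1.93 (adjusted p = 0.0328), called EXPA4 with ABA+SA against ABA at 3 h (0.0274), ended the EXPA4 call with ABA at 24 h (0.0717), and gave 2 for ABA+SA against ABA at each time, and 0 for the ABA by SA interaction at 24 h. The block within each time gave 1 and 2 for ABA and ABA+SA against EtOH at 3 h and 2 for ABA+SA against ABA at each time. It called EXPA4 with ABA+SA at 3 h against EtOH (adjusted p = 0.0189) and against ABA (0.0063), and ended both XTH32 calls with ABA+JA (0.0534 against EtOH, 0.0502 against ABA). The numbers were not taken as pairing the arrays: of 66 pairs of groups 32 had deviations correlated above 0.1, and at 3 h 10 of 15. The 10 pairs at 3 h without ABA alone all did, at 0.253 to 0.553, a hint from the data and not from the labels, against 7 of 10 such pairs at 24 h.

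With each array left out in turn the counts ranged, at 3 h against EtOH, from 0 to 1 for ABA, 0 to 1 for ABA+SA and 1 to 5 for ABA+JA, and at 24 h from 2 to 5 for ABA, 0 to 2 for JA, 1 to 2 for ABA+SA and 1 to 3 for ABA+JA. They ranged from 0 to 1 for ABA+SA against SA, 1 to 2 for ABA+JA against JA, 0 to 2 for ABA+SA and 1 to 6 for ABA+JA against ABA at 3 h, 1 to 2 for ABA+SA against ABA at 24 h, 1 to 2 for EtOH by time, 1 to 2 for the ABA response, and 0 to 1, 0 to 1 and 0 to 2 for the interactions of ABA with JA at 3 h, with SA at 24 h and with JA at 24 h. The sign turned for uncalled changes only: EXLA3 with SA at 3 h (range -2.40 to 0.87, with 0.61 without SA replicate 1), EXLA2 with JA at 3 h (-2.31 to 0.17), XTH18 with SA at 24 h (-3.68 to 0.27), and with ABA+JA against JA at 24 h EXPA4 (-3.17 to 0.14) and EXPB3 (-2.02 to 0.48). The positive values arose without EtOH replicate 2 at 3 h, JA replicate 1 at 3 h, EtOH replicate 1 at 24 h and JA replicate 2 at 24 h. The causes were not tested.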

Other observations

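Probe sets near the 27 genes in name were left out by the naming rule and were called in no comparison. EXGT-A3, whose synonym is XTH27, read 10.29 to 11.93 over all arrays, and AT4G30380, whose synonym is EXLB2, read 2.45 to 3.17. Of the expansin probe sets matched to several genes, that of EXPA22 and EXP26 read 2.35 to 3.08 and that of EXPA23 and EXPA25 read 3.12 to 4.14.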
